A study of Mus musculus with 2 samples.

Results

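The HIF oxygen-sensing factors are the hypoxia-inducible transcription factors and the enzymes that set their level by oxygen. They were taken as 10 genes by symbol, out of 24319 named genes in the deposited table: the alpha subunits Hif1a, Epas1 and Hif3a, the partners Arnt and Arnt2, the prolyl hydroxylases Egln1, Egln2 and Egln3, the ubiquitin ligase subunit Vhl, and the asparaginyl hydroxylase Hif1an. RNA was measured in EdU+ nuclei of the dentate gyrus of adult mice aged 8 weeks, either heterozygous for a Kmt2d mutation (Kmt2d +/mut, written Kmt2d+/Bgeo in the series' design) or wild-type. KMT2D methylates histone H3. All mice received 150 mg/kg of EdU, a thymidine analogue built into DNA in S phase, and were sampled after 16 h. For each genotype, 500 nuclei from 3 mice were pooled into 1 library, so animals cannot be told apart, no difference below has a replicate check, and no test between genotypes was made here. The labels give neither strain nor sex.

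In a cell with enough oxygen, EGLN enzymes use oxygen and 2-oxoglutarate to hydroxylate prolines of the HIF alpha subunits, and VHL then marks the hydroxylated protein for destruction by the proteasome. HIF1AN hydroxylates an asparagine and so blocks the binding of coactivators. When oxygen is short, the alpha subunit persists, pairs with ARNT or ARNT2 and binds hypoxia response elements with the core ACGTG or GCGTG. The alpha subunits are controlled mainly as proteins, which mRNA levels do not show. In mice, Hif1a has been linked to Wnt signalling in hippocampal neural progenitors.

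The sequences just before the start sites are shown for the 4 genes that had an estimated count of about 9 or more fragments in the Kmt2d +/mut library and were listed at 0 in the wild-type library. Each line gives the 250 bases before the start site, 5′ to 3′ on the gene's strand, from RefSeq (GRCm38.p6, the build mm10 stands for). They lie at chr12:73907617-73907866 on the plus strand for Hif1a, chr3:95434140-95434389 on the plus strand for Arnt, chr7:27166803-27167052 on the minus strand for Egln2, and chr6:113623744-113623993 on the plus strand for Vhl. Capitals mark ACGTG or GCGTG on either strand.

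Hif1a: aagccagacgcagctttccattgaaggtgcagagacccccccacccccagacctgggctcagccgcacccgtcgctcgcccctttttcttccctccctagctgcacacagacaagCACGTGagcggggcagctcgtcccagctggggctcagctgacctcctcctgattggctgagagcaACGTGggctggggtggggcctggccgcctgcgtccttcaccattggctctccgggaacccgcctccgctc

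Arnt: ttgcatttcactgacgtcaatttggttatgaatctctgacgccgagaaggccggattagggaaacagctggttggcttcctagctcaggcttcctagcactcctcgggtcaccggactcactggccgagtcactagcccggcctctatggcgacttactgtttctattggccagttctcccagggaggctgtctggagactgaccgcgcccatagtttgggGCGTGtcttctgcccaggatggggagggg

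Egln2: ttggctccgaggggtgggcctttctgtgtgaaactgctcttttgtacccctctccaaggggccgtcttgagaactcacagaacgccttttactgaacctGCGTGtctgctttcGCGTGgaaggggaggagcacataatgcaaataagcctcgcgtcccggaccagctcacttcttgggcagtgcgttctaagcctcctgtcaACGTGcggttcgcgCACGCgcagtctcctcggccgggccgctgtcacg

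Vhl: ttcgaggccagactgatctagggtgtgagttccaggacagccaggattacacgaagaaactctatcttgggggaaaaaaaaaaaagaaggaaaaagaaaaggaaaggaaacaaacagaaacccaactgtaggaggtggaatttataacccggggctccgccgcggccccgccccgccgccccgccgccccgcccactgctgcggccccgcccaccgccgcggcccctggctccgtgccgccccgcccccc

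The Hif1a window held ACGTG in 2 places, of which 1 is the palindrome CACGTG, read on both strands. Egln2 held 4 places, 1 with ACGTG and 3 with GCGTG. Arnt held GCGTG once, and in the Vhl window neither motif was found. A window was matched for 9 of the 10 genes, and 6 of these held at least 1 of the motifs, against 38.6% of 32851 RefSeq windows of the same length. The matched windows were 50.8% to 86.0% G or C and the median over all windows was 52.4%. The motifs are a description of these letters, since binding was not measured. Epas1 was not matched.

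Of these genes, 5 were read in the Kmt2d +/mut library alone (Hif1a, Arnt, Egln1, Egln2 and Vhl), Epas1 and Arnt2 were read in both, and Egln1 rested on about 1 fragment. Of the 10 genes, 7 had a value above 0 in Kmt2d +/mut nuclei and 2 in wild-type nuclei. Of all named genes, 22.4% were above 0 in Kmt2d +/mut nuclei and 23.8% in wild-type nuclei. Hif3a, Egln3 and Hif1an were listed at 0 in both, as were 66.9% of all named genes. Over the 7 genes with an FPKM (fragments scaled by transcript length and library total) of 1 or more in a library, 6 stood 2-fold or more above wild-type in Kmt2d +/mut nuclei on the scale of FPKM + 1, and 5 of these were listed at 0 in wild-type nuclei. The remaining gene, Arnt2, was within 2-fold on that scale, and 0 genes were at least 2-fold lower. Over all 7903 genes past the same minimum, 40.5% stood 2-fold or more above wild-type, 44.3% stood 2-fold or more below, and 27.8% were listed at 0 in wild-type nuclei. Among the 7 genes of the group the share that were higher was 85.7%, and its difference from the share of all genes was not tested. The 5 genes listed at 0 in wild-type nuclei passed the minimum only through the Kmt2d +/mut library, where they were read. Egln1, on about 1 fragment, is 1 of these 5. The FPKM of the 10 genes summed to 184.7 in Kmt2d +/mut nuclei and 8.66 in wild-type nuclei.

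**Figure D1:**
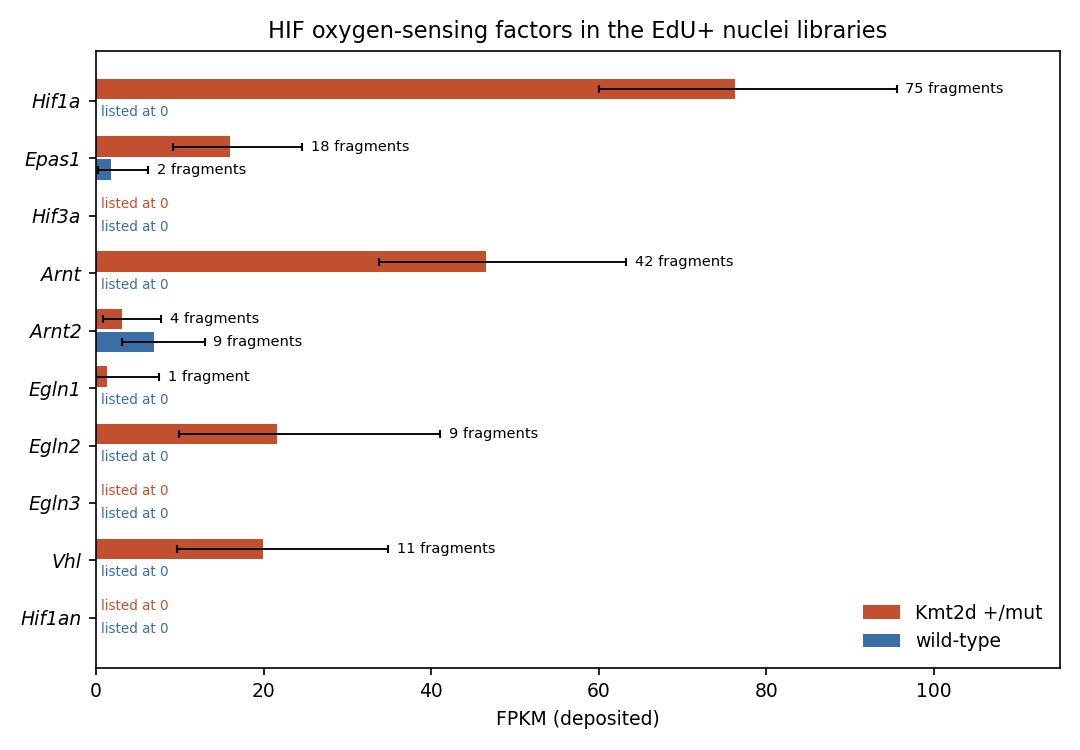
Deposited FPKM of each gene in the Kmt2d +/mut library (upper bar) and the wild-type library (lower bar), with the estimated number of fragments behind each value. Error bars are 95% Poisson intervals of the estimated fragments and cover counting error only; Hif1a stood at 76.2 FPKM in Kmt2d +/mut nuclei against a listed 0, and Arnt2 alone had its higher value in wild-type nuclei, within counting error.

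Depth limits all of these values. From the steps between low FPKM values, 1 fragment was worth about 4.61 FPKM in Kmt2d +/mut nuclei and 4.59 in wild-type nuclei on a length of 1 kb, or about 216920 and 217865 fragments in all, assuming FPKM scaled by the total of the same library. The 10 genes then rested on 160.5 estimated fragments in Kmt2d +/mut nuclei and 11.1 in wild-type nuclei. These estimates use the longest annotated transcript, and the shortest protein-coding one gives 25.9 fragments for Hif1a and 1.90 for Arnt in Kmt2d +/mut nuclei. Genes above 0 numbered 5443 in Kmt2d +/mut nuclei and 5787 in wild-type nuclei. A 0 may stand for a failed estimate, so it is written here as a listed 0. Against a listed 0 the difference on the scale of FPKM + 1 is set by the pseudocount, so for such genes it serves to count directions and is not a measured fold. Reads copied by PCR were not marked, so intervals cover counting error only. The labels describe no strand marking, and 4 of the 10 genes overlap a gene on the other strand in the GENCODE annotation. Kmt2d itself was read at 23.5 FPKM in Kmt2d +/mut nuclei and 34.7 FPKM in wild-type nuclei, a value per gene that does not separate its alleles. Of the markers, 9 of 10 endothelial genes and all 5 pericyte genes were listed at 0 in both libraries. Progenitor markers were above 0 for 8 of 9 genes in each library. Granule neuron markers were above 0 for 4 of 7 genes in Kmt2d +/mut nuclei and 5 of 7 in wild-type nuclei. Of that list, Snap25 and C1ql2 were read in both libraries, while Prox1, which defines granule cells, was listed at 0 in both. In bulk RNA, fewer cells of a type and less RNA per cell cannot be told apart.

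The alpha subunits summed to 92.2 FPKM in Kmt2d +/mut nuclei and 1.75 FPKM in wild-type nuclei. Hif1a, the broadly expressed oxygen-regulated subunit, stood at 76.2 FPKM in Kmt2d +/mut nuclei and was listed at 0 in wild-type nuclei (mm10, chromosome 12, 73907867 to 73947530, plus strand). This rested on an estimated 74.9 fragments in Kmt2d +/mut nuclei, with a 95% Poisson interval of 59.0 to 94.0 that corresponds to 59.98 to 95.6 FPKM. By contrast, 3 fragments in wild-type nuclei would have read as 3.04 FPKM. The authors' deposited table calls Hif1a higher in Kmt2d +/mut nuclei, with a p-value of 0.00565 and a q-value of 0.0306, from 1 library per genotype. It was the only one of the 10 genes that the authors tested. The authors' deposited table calls 12.8% of all 3249 tested genes higher in Kmt2d +/mut nuclei, 14.3% lower and so 27% in all, and of the 1423 tested genes listed at 0 in 1 library it calls 61.7%. Of the 1826 tested genes above 0 in both, it calls 0. A call in the authors' deposited table therefore went only to genes listed at 0 in 1 library.

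Every gene tested there had an FPKM of at least 49.85 in a library, and every untested gene was at 49.82 or below in both. Arnt, at 46.6 FPKM, lay just under that level. The other genes of the group were further below it.

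Epas1, the alpha subunit known from endothelium and from control of erythropoietin, was read in both libraries, at 16.0 FPKM in Kmt2d +/mut nuclei and 1.75 FPKM in wild-type nuclei (chromosome 17, 86753864 to 86833410, plus strand). The ratio was 9.12, from about 18 fragments in Kmt2d +/mut nuclei and 2 in wild-type nuclei, with an exact binomial 95% interval of 2.16 to 80.3. That interval does not include equal levels, but the spread between animals is not known. A low wild-type value was also usual at this level. Of 479 other genes within a factor of 1.25 of the Kmt2d +/mut level of Epas1, 43.0% were listed at 0 in wild-type nuclei. Their median in wild-type nuclei was 2.07 FPKM. Among the genes above 0 in each library, Epas1 stood at the 35.8th percentile in Kmt2d +/mut nuclei and the 6.88th in wild-type nuclei. Of the 10 endothelial markers, Vwf at 1.06 FPKM in Kmt2d +/mut nuclei was the only one above 0, and it was listed at 0 in wild-type nuclei, while Pecam1, Cldn5, Cdh5 and Tek were at 0 in both. The endothelial list thus summed to 1.06 FPKM in Kmt2d +/mut nuclei and to 0 in wild-type nuclei. Of all named genes, 66.9% were listed at 0 in both libraries. The part of endothelial cells in the values of Epas1 was not tested. Hif3a, whose protein can act as an inhibitor of the other subunits, was listed at 0 in both libraries (chromosome 7, 17030993 to 17062427, minus strand). On its longest annotated transcript of 6402 bases, the limit that a count of 0 allows, taken as 3 fragments, is 2.23 FPKM in Kmt2d +/mut nuclei and 2.22 FPKM in wild-type nuclei.

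Of the partners, Arnt was read in Kmt2d +/mut nuclei alone and Arnt2 in both libraries. Arnt, the general partner of the alpha subunits and of the dioxin receptor, stood at 46.6 FPKM in Kmt2d +/mut nuclei, an estimated 41.8 fragments (95% Poisson interval 30.3 to 56.8), and was listed at 0 in wild-type nuclei (chromosome 3, 95434390 to 95497239, plus strand). In wild-type, 3 fragments of Arnt would have read as 3.33 FPKM. Arnt2, the partner typical of neurons, stood at 3.11 FPKM in Kmt2d +/mut nuclei and 6.91 FPKM in wild-type nuclei (chromosome 7, 84246275 to 84410038, minus strand). That is 45.0% of the wild-type level, from 4 estimated fragments in Kmt2d +/mut nuclei and 9 in wild-type nuclei, and the 95% interval of the ratio, 0.1004 to 1.60, includes equal levels. Together the partners summed to 49.7 FPKM in Kmt2d +/mut nuclei and 6.91 FPKM in wild-type nuclei. In wild-type all of that sum was Arnt2, whereas in Kmt2d +/mut nuclei Arnt was 15.0-fold above Arnt2.

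**Figure D2:**
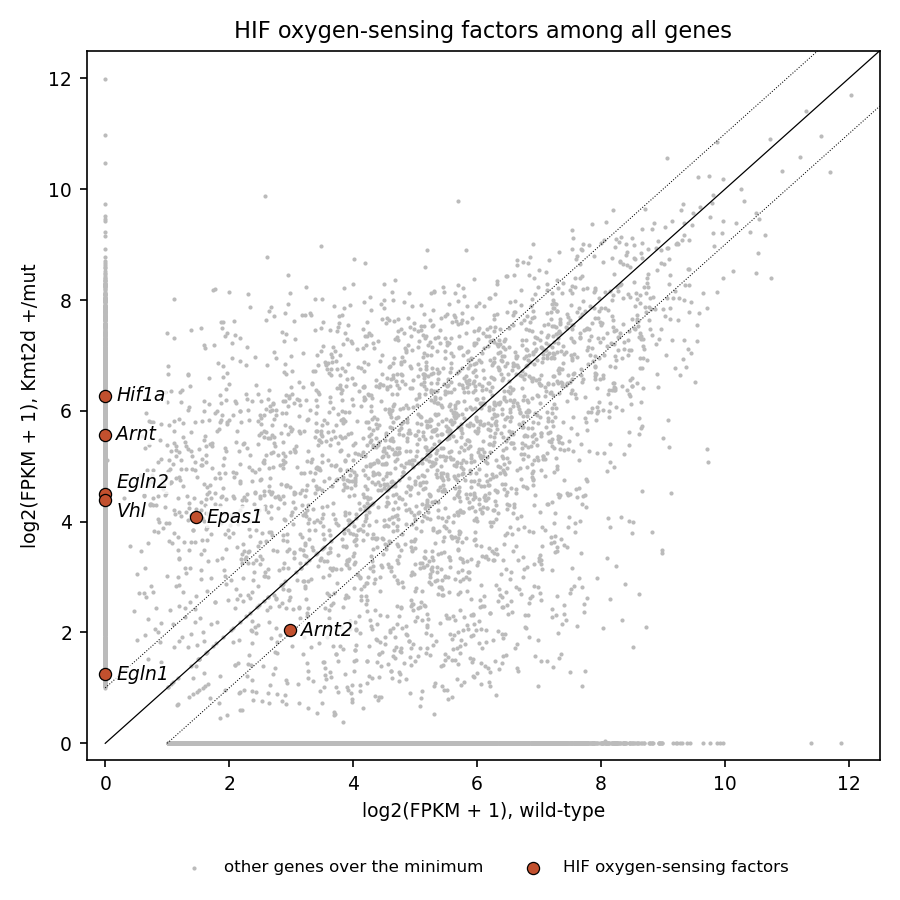
Each point is a gene with an FPKM of 1 or more in a library, at log2(FPKM + 1) in wild-type nuclei (x) and Kmt2d +/mut (y). The solid line marks equal values and dotted lines a 2-fold difference; 5 of the 7 coloured genes lie on the left edge, listed at 0 in wild-type nuclei, among 2197 genes there.

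None of the prolyl hydroxylases was read in wild-type nuclei, and they summed to 23.0 FPKM in Kmt2d +/mut nuclei. Egln2, which encodes PHD1, stood at 21.6 FPKM in Kmt2d +/mut nuclei, an estimated 8.99 fragments (95% Poisson interval 4.12 to 17.1), and was listed at 0 in wild-type nuclei, where 3 fragments would have read as 7.18 FPKM (chromosome 7, 27158658 to 27166802, minus strand). It overlaps Cyp2t4 on the other strand, which was listed at 0 in both libraries. Egln1, which encodes PHD2, the main oxygen sensor of the family, stood at 1.38 FPKM in Kmt2d +/mut nuclei and was listed at 0 in wild-type nuclei (chromosome 8, 124908587 to 124949254, minus strand). Its value corresponds to 1.02 fragments, so the difference between genotypes in Egln1 is that of 1 fragment and was not detectable at this depth. Egln3, which encodes PHD3 and is itself induced by HIF, was listed at 0 in both libraries (chromosome 12, 54178981 to 54203874, minus strand). There 3 fragments would have read as 5.59 FPKM in Kmt2d +/mut nuclei and 5.57 FPKM in wild-type nuclei.

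Vhl, the substrate-recognition subunit of the ligase, stood at 19.9 FPKM in Kmt2d +/mut nuclei and was listed at 0 in wild-type nuclei (chromosome 6, 113624021 to 113631633, plus strand). This rested on an estimated 11.2 fragments in Kmt2d +/mut nuclei, with a 95% Poisson interval of 5.49 to 19.7, and 3 fragments in wild-type nuclei would have read as 5.29 FPKM. Hif1an, which encodes the asparaginyl hydroxylase FIH, was listed at 0 in both libraries (chromosome 19, 44562854 to 44576274, plus strand). Its longest transcript has 6194 bases, on which 3 fragments would have read as 2.30 FPKM in Kmt2d +/mut nuclei and 2.29 FPKM in wild-type nuclei. The genes not read in either library were therefore not the shortest: Egln2, with a longest transcript of 2107 bases, was read in Kmt2d +/mut nuclei.

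The order of levels in Kmt2d +/mut nuclei was Hif1a, Arnt, Egln2, Vhl, Epas1, Arnt2 and Egln1. Hif1a was 1.64-fold above Arnt, with an exact binomial 95% interval of 1.10 to 2.44, and Arnt was 2.15-fold above Egln2, with an interval of 1.04 to 5.05. All intervals of this order rest on the longest transcripts and on fragments in which PCR copies were not marked. With the planned median length, Arnt had 24.9 estimated fragments, Egln2 8.17 and Arnt2 0.492 in Kmt2d +/mut nuclei. No intervals were made at that length, so the order is not settled by these. Egln2 and Vhl, at a fold of 1.09 with an interval of 0.407 to 2.95, did not differ beyond counting error, nor did Vhl and Epas1, at 1.25 with an interval of 0.534 to 2.80. Epas1 was 5.13-fold above Arnt2, with an interval of 1.68 to 20.7. Arnt2 and Egln1, at a fold of 2.26 with an interval of 0.223 to 111, did not differ beyond counting error. Within families, Hif1a was 4.77-fold above Epas1 and Egln2 15.7-fold above Egln1 in Kmt2d +/mut nuclei. Hif1a ranked 1445 of the 5443 genes above 0 in Kmt2d +/mut nuclei and Arnt 2089, while Arnt2, the highest of the group in wild-type nuclei, ranked 4459 of 5787 there. In wild-type Arnt2 was 3.95-fold above Epas1, with an interval of 0.822 to 37.8.

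A listed 0 in the other library was common for genes at these levels. Of 558 other genes with a Kmt2d +/mut level within a factor of 1.25 of that of Hif1a, 218, or 39.1%, were listed at 0 in wild-type nuclei, and the authors' deposited table calls 125 of the 218. The share listed at 0 in wild-type nuclei was 37.6% of 609 genes near the level of Arnt, 41.5% of 578 near Egln2 and 40.5% of 553 near Vhl. Near Egln1 it was 56.8% of 146 genes. In the other direction, 48.6% of 356 genes near the wild-type level of Arnt2 were listed at 0 in Kmt2d +/mut nuclei, where Arnt2 was read. Each single 0 in wild-type nuclei was thus a frequent reading, and the 5 zeros come from the same pair of libraries, so they are not independent.

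**Figure D3:**
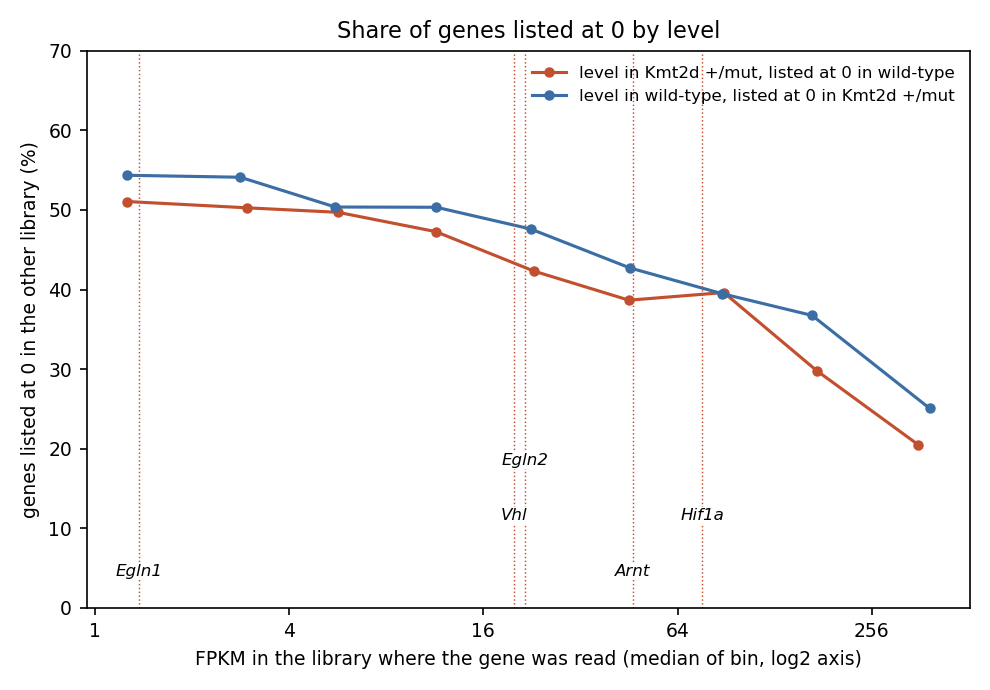
Share of genes listed at 0 in the other library (y, percent) against the FPKM in the library where they were read (x, log2 axis), in 9 level bins, for Kmt2d +/mut and wild-type. Dotted lines mark the Kmt2d +/mut levels of the 5 genes listed at 0 in wild-type nuclei; for genes read in Kmt2d +/mut nuclei the share is 51.1% up to 2 FPKM, 39.6% in the bin holding Hif1a and 20.5% above 256 FPKM.

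The genes with levels most like those of Hif1a, by the distance of log2(FPKM + 1) over the 2 libraries, were Xrcc3, Rrbp1 and D6Wsu163e. They stood at 76.2, 76.2 and 76.4 FPKM in Kmt2d +/mut nuclei and were listed at 0 in wild-type nuclei. With 2 libraries this likeness is one of level only. The authors' deposited table calls Rrbp1 and D6Wsu163e higher, each with a q-value of 0.029, and does not call Xrcc3, with a q-value of 0.52.

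Other genes of the oxygen-sensing pathway did not share one direction. Of 22 genes for the VHL ligase and HIF turnover, 17 passed the minimum of 1 FPKM, and 5 of these stood 2-fold or more above wild-type while 10 stood 2-fold or more below. The median log2 ratio was -1.39, against -0.23 over all genes. Cul2, the scaffold that carries VHL, stood at 75.1 FPKM in Kmt2d +/mut nuclei and 11.4 FPKM in wild-type nuclei. The adaptor genes Tceb1 and Tceb2, which link VHL to Cul2, stood at 152 and 135.9 FPKM in Kmt2d +/mut nuclei and at 186 and 358 FPKM in wild-type nuclei, and the RING subunit gene Rbx1 at 6.30 FPKM in Kmt2d +/mut nuclei and 37.3 FPKM in wild-type nuclei. Of these subunits Vhl was the only one listed at 0 in a library. Uba3 and Nae1, which together form the enzyme that activates NEDD8 for cullins, were listed at 0 in Kmt2d +/mut nuclei and stood at 88.4 and 109.7 FPKM in wild-type nuclei. Both are called lower in the authors' deposited table, which tested 10 genes of the list and calls 0 of them higher. Of all 3249 tested genes that table calls 12.8% higher and 14.3% lower.

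The other oxygen-dependent hydroxylases and dioxygenases were read mainly in wild-type nuclei. Of 21 genes, 14 passed the minimum, of which 9 were listed at 0 in Kmt2d +/mut nuclei and 1 in wild-type nuclei. Over all 7903 genes past the minimum, 31.9% were listed at 0 in Kmt2d +/mut nuclei and 27.8% in wild-type nuclei. The median log2 ratio of the list was -3.25, but 0.50 over its 4 genes above 0 in both libraries, so it rests on the genes listed at 0. P4htm, a membrane-bound prolyl hydroxylase related to the EGLN enzymes, was listed at 0 in Kmt2d +/mut nuclei and stood at 292 FPKM in wild-type nuclei. The authors' deposited table calls P4htm lower with a q-value of 0.0301, along with the collagen hydroxylase genes P4ha2 and Plod1. That table tested 7 genes of the list and calls these 3 lower and 0 higher. Of all 3249 tested genes it calls 14.3% lower.

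Of 12 HIF coactivator genes, 9 were above 0 in Kmt2d +/mut nuclei and 6 in wild-type nuclei. Of these genes, 10 passed the minimum, and 6 of these stood 2-fold or more above wild-type, 3 within 2-fold and 1 below, with a median log2 ratio of 1.25. Ep300, whose acetyltransferase binds the HIF alpha subunits, stood at 21.9 FPKM in Kmt2d +/mut nuclei and 7.38 FPKM in wild-type nuclei. Its relative Crebbp stood at 2.50 FPKM in Kmt2d +/mut nuclei and was listed at 0 in wild-type nuclei. The authors' deposited table tested 1 gene of this list and calls 0. Crebbp, like Cul2, Tceb1 and Rbx1, was named after its values were seen.

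Of the other 11 bHLH-PAS factors, the family that HIF subunits and ARNT belong to, 7 were listed at 0 in both libraries, 2 stood 2-fold or more above wild-type and 2 below. Among all named genes, 66.9% were listed at 0 in both libraries. Npas3, known from neural progenitors, stood at 37.0 FPKM in Kmt2d +/mut nuclei and 5.56 FPKM in wild-type nuclei. None of this list was tested in the authors' deposited table.

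Genes that set the supply of HIF protein through transcription and translation ran both ways, with 5 of 12 standing 2-fold or more above wild-type and 6 below and a median log2 ratio of -1.33. Sp1, a factor that can drive Hif1a transcription, stood at 67.8 FPKM in Kmt2d +/mut nuclei and was listed at 0 in wild-type nuclei, and Pik3ca was listed at 0 in Kmt2d +/mut nuclei and stood at 60.5 FPKM in wild-type nuclei. The authors' deposited table calls Sp1 higher and Pik3ca lower, with q-values of 0.0293 and 0.00308. It tested 8 genes of this list and calls 1 higher and 1 lower. Of all 3249 tested genes it calls 12.8% higher and 14.3% lower. Among enzymes of the metabolites that feed or block the hydroxylases, Fh1, which removes fumarate, was listed at 0 in Kmt2d +/mut nuclei and stood at 275 FPKM in wild-type nuclei. Fh1 is called lower in the authors' deposited table, with a q-value of 0.0303, and is the only 1 called of the 7 genes tested from this list. Idh2 went the other way, at 284 FPKM in Kmt2d +/mut nuclei and 3.01 FPKM in wild-type nuclei. Sdhd stood at 131 FPKM in Kmt2d +/mut nuclei and 142 FPKM in wild-type nuclei. Of that list 2 of 8 stood 2-fold or more above wild-type and 3 below, with a median log2 ratio of -0.55.

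**Figure D4:**
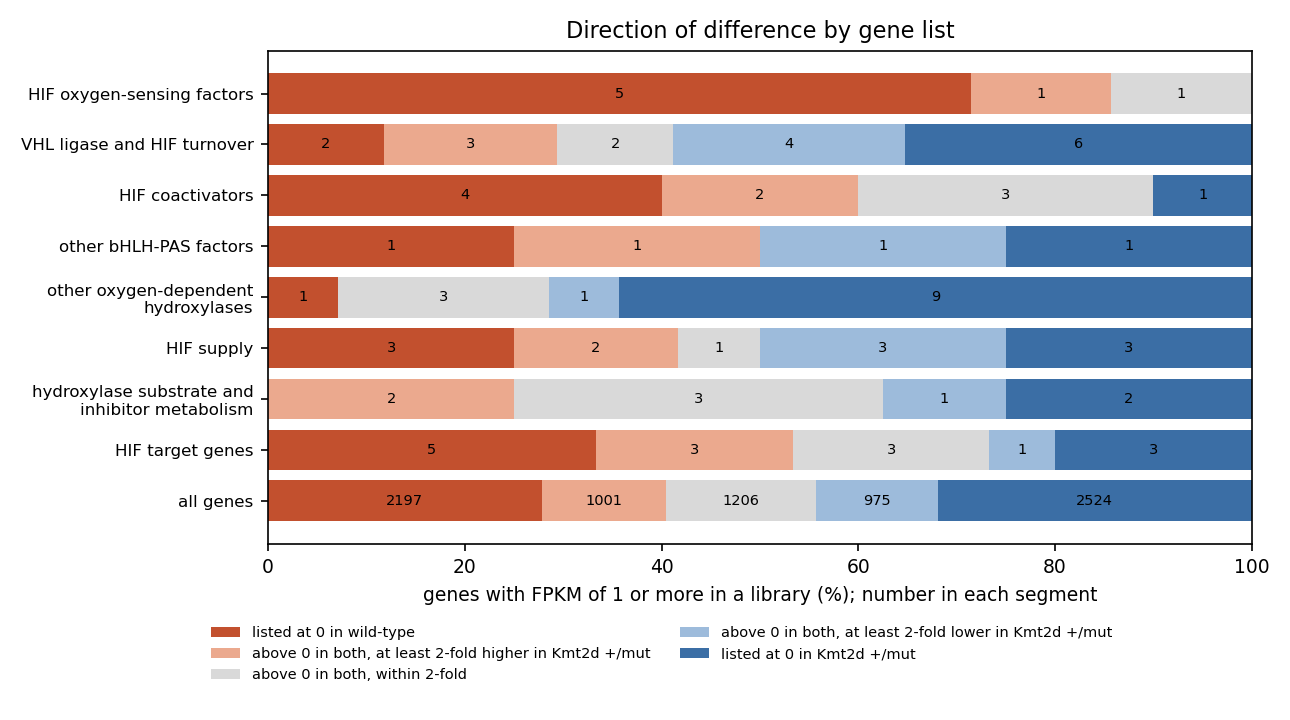
For each gene list, the share of genes over the minimum (x, percent) by direction, with the number of genes in each segment. The HIF oxygen-sensing factors hold 5 genes listed at 0 in wild-type nuclei and 0 in Kmt2d +/mut nuclei, while 9 of 14 other oxygen-dependent hydroxylases were listed at 0 in Kmt2d +/mut nuclei.

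Genes known to be induced by HIF were mixed. Of 32 target genes in the table, 17 were listed at 0 in both libraries, as were 66.9% of all named genes. The other 15 passed the minimum, with 8 of these 2-fold or more above wild-type, 3 within 2-fold and 4 below. The median log2 ratio of these 15 was 1.19, and 0.09 over the 7 genes above 0 in both libraries. The authors' deposited table tested 9 and calls 1 of them, Ldha, higher. Of all 3249 tested genes it calls 12.8% higher. Of the targets, Aldoa, Tpi1 and Wsb1 had the highest mean FPKM. They stood at 757, 511 and 515 FPKM in Kmt2d +/mut nuclei and at 714, 223 and 118 FPKM in wild-type nuclei. Vegfa, the vascular growth factor gene, stood at 99.5 FPKM in Kmt2d +/mut nuclei and 24.1 FPKM in wild-type nuclei, while Hilpda was listed at 0 in Kmt2d +/mut nuclei and stood at 88.2 FPKM in wild-type nuclei; both were named after their values were seen.

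Markers of microglia, a cell type that also expresses Hif1a, summed to 280.8 FPKM in Kmt2d +/mut nuclei and 62.5 FPKM in wild-type nuclei. In each library 3 of the 9 were above 0, and the defining genes Cx3cr1, Tmem119 and Aif1 were at 0 in both, while P2ry12 was listed at 0 in Kmt2d +/mut nuclei and stood at 40.2 FPKM in wild-type nuclei. Oligodendrocyte lineage markers summed to 1638 FPKM in Kmt2d +/mut nuclei and 1115 FPKM in wild-type nuclei, with 8 of 9 genes above 0 in Kmt2d +/mut nuclei and 7 in wild-type nuclei. Radial glia and astrocyte markers summed to 1039 FPKM in Kmt2d +/mut nuclei and 911 FPKM in wild-type nuclei, with 6 of 11 above 0 in each. Progenitor markers summed to 685 FPKM in Kmt2d +/mut nuclei and 495 FPKM in wild-type nuclei. Immature neuron markers summed to 970.5 FPKM in Kmt2d +/mut nuclei and 1137 FPKM in wild-type nuclei, with 5 of 7 above 0 in Kmt2d +/mut nuclei and 4 in wild-type nuclei. Granule neuron markers summed to 837 FPKM in Kmt2d +/mut nuclei and 1075 FPKM in wild-type nuclei, with 4 of 7 above 0 in Kmt2d +/mut nuclei and 5 in wild-type nuclei. Some markers had the pattern of Hif1a: Insm1 at 95.7 FPKM, Olig2 at 77.8, Dcx at 51.1 and Sox2 at 46.7 in Kmt2d +/mut nuclei were each a listed 0 in wild-type nuclei. The authors' deposited table calls Insm1, Olig2 and Dcx higher and Calb1 lower. It tested 7 progenitor, 7 oligodendrocyte lineage, 4 immature neuron and 4 granule neuron markers, and calls 1 from each list. Of the 3 microglia and 5 radial glia and astrocyte markers tested it calls 0. Of all 3249 tested genes it calls 27%, and of the 1423 listed at 0 in 1 library 61.7%. Eomes stood at 76.7 FPKM in Kmt2d +/mut nuclei and 2.61 FPKM in wild-type nuclei. In the other direction Calb1 was a listed 0 in Kmt2d +/mut nuclei and stood at 178 FPKM in wild-type nuclei, and Gfap likewise at 54.6 FPKM in wild-type nuclei. Calb2, at 66.2 FPKM in wild-type nuclei, and Top2a, at 1.80, were also listed at 0 in Kmt2d +/mut nuclei. Sox2, Eomes, Gfap, Tubb3 and Top2a were named after their values were seen. The rule for naming genes, given below, did not pick P2ry12, Cx3cr1, Tmem119, Aif1, Prox1, Pecam1, Cldn5, Cdh5 or Tek either. The part of these cell types in the values of the HIF oxygen-sensing factors was not tested.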

How the data were processed

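RNA from sorted EdU+ dentate gyrus nuclei was sequenced after a modified Smart-seq2 protocol, a full-length method with amplification by PCR, per the labels' protocols. HISAT2, Cuffnorm, Cuffdiff and the build mm10 are named, per the submitters' processing notes. Their versions, the annotation and the scaling between libraries are unknown here. The authors deposited gene-level FPKM values with the p-value and q-value of their own test for each pair of 6 libraries. The pair of the Kmt2d +/mut and wild-type EdU libraries was used, and the other 4 libraries were not. Of its 24346 entries, 27 had a date in place of a name and were left out.

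Differences are the log2 of (FPKM + 1) in Kmt2d +/mut over that in wild-type, for genes that reach 1 FPKM in either library. It understates the differences of low genes, and for a gene listed at 0 it is set by the pseudocount. Fragments were estimated from the steps between low values of single-transcript genes longer than 800 bases, with 190 bases taken off the length. There 77.1% of 70 low values in Kmt2d +/mut and 82.1% of 84 in wild-type lay within 0.1 of a whole number. The longest annotated transcript (GENCODE M21) was used, a choice made after seeing the data, since the planned median protein-coding length gave Arnt2 under 1 fragment. The step search was tested on simulated data. Intervals are exact and cover counting error only. Tools were Python 3.11.15, pandas 2.3.3 and scipy 1.17.1.

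The genes and lists were chosen with earlier results of these data known. All 10 genes are named; from each other list the rule took the 3 with the highest mean FPKM and any with a call by the authors, and the text prints some of these. No replicate exists, so none could be left out.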

Additional observations from a re-analysis of the deposited data

How the results depend on the processing

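The log2 ratio of each of the 7 genes over the minimum kept its sign under all 4 alternatives of pseudocount and scaling. With a pseudocount of 0.1 the median log2 ratio was 7.64 in place of 4.39 and 1 gene, Arnt2, was at least 2-fold lower in Kmt2d +/mut. With a pseudocount of 10 the median was 1.58 and 5 genes were at least 2-fold higher. A minimum of 5 FPKM gave 4.44 and rescaling by the median ratio 4.37. Rescaling both libraries to one larger sum, with the pseudocount kept at 1, gave 5.70, with Hif1a at 7.62 in place of 6.27, Epas1 at 3.08 in place of 2.63 and the median of all genes at -0.06 in place of -0.23. Over the genes above 0 in both libraries, Epas1 and Arnt2, the median was 0.84, with 1 at least 2-fold higher and 0 listed at 0 in wild-type. The authors tested only Hif1a, at 6.27, which left 1 higher and 1 listed at 0 in wild-type. The median of the coactivator list was -0.75 over the 1 gene the authors tested, and that of the other oxygen-dependent hydroxylases 0.50 over genes above 0 in both libraries, each opposite in sign to its main value. Over such genes the substrate and inhibitor metabolism list had a median of 0.03 in place of -0.55, and all genes one of 0.02 in place of -0.23. These alternatives leave out the genes listed at 0 or untested by construction. With the planned median transcript length, Hif1a had 69.3 estimated fragments, Arnt 24.9 and Egln2 8.17 in Kmt2d +/mut, and Arnt2 0.492 in Kmt2d +/mut and 1.10 in wild-type. With the shortest annotated protein-coding transcript, the estimate for Hif1a was 25.9 fragments and that for Arnt 1.90. No paired analysis was possible because each genotype has 1 library. A level of 1 fragment, as for Egln1, cannot be told from 0 at this depth.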
